A study of Mus musculus with 2 samples.

Results

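Grem1hi CD81 fibroblasts (FB) were examined among mesenchymal stromal cells (MSC) of intestinal grafts by single-cell RNA-seq. They were selected on measured values, as cells with at least 3 Grem1, 1 Cd81 and 1 Dcn unique molecular identifiers (UMIs) and with a UMI for fewer than 2 of Pi16, Scara5, Dpp4 and Sema3c, fewer than 2 of Bmp3, Bmp5 and Bmp7, and fewer than 2 of Fgfr2, Adamdec1, Scube1 and Col6a5. This gave 2275 cells of 16323 Dcn+ cells, themselves part of 17783 barcodes that had 500 genes or more and no more than 10% of their UMIs from mitochondrial genes. The large intestinal (LI) graft library held 1074 of them and the small intestinal (SI) graft library 1201. Every other Dcn+ cell past the same limits, 8201 in LI and 5847 in SI, served for comparison.

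Embryonic SI and LI of the strain EYFP (C57BL/6), from EYFP fathers and C57BL/6Nrj mothers per the study's methods, had been transplanted below the capsule of the kidney in adult wild-type hosts and recovered after 4 weeks. Both libraries were sorted for live EYFP+ Itgb1+ cells negative for CD45, Ter119, BP3, CD31, EpCAM and L1CAM, so leukocytes, erythroid, endothelial, epithelial and glial cells should be gated out and the remaining cells derive from the embryo. Neither group received an agent, and both carried the same reporter. As a model, the graft lacked gut contents and grew under a kidney capsule, several colonic grafts were pooled per the study's reporting with the number for SI not stated, and there was 1 library per group with the kit (3′ or 5′) of each not stated. Cells of 1 library are not replicates, so no difference below could be tested and no p is given. Intervals are exact 95% intervals and cover counting error only, and the graft site, the pool and the library cannot be told apart.

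GREM1 is a secreted antagonist that binds bone morphogenetic proteins (BMP) and keeps them from their receptors. In the gut, BMP signalling drives epithelial differentiation, and its antagonists around the crypt base hold it low near stem cells, together with R-spondins that amplify Wnt signalling. CD81 is a tetraspanin of the cell surface, and FB of the adult submucosa that carry CD81, CD34 and Grem1 are also known as trophocytes. Decorin (Dcn) is a small leucine-rich proteoglycan of most FB. On GRCm38, Grem1 (ENSMUSG00000074934) lies at chr2:113746164-113758646 on the minus strand, and Cd81 (ENSMUSG00000037706) at chr7:143052739-143067934 and Dcn (ENSMUSG00000019929) at chr10:97479609-97518143 on the plus strand, each a protein-coding gene.

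The 2 libraries held 63348069 UMIs over 11568 barcodes in LI and 54918006 over 9631 in SI. Grem1hi CD81 FB were deeper than the cells they were set against. Their median was 7268 UMIs in LI and 7032 in SI, against 5191 and 5656 in other Dcn+ cells. The libraries shared 26 barcode sequences, of which 7 were among the selected cells of 1 library and 0 of both. Erythroid markers summed to 197 CPM (the UMIs of a gene scaled to a common total of UMIs) in the SI cells, with 99.6% of these UMIs in 1 barcode, so Hbb-bs, which enters the counts of called genes, is not described further.

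Grem1hi CD81 FB made up a larger share of Dcn+ cells in SI than in LI. The share was 17.04% (16.2 to 17.9) of 7048 cells in SI and 11.6% (10.9 to 12.2) of 9275 in LI. SI was also above LI within female cells but below it within male cells, as given later. Of cells with 3 or more Grem1 UMIs and Dcn, 532 in LI and 1265 in SI had no Cd81 UMI. A further 472 and 390 were set aside for the excluded genes, most often for the Fgfr2 group (280 and 248) or the Pi16 group (207 and 157), and rarely for the BMP ligands (21 and 13). The threshold on Grem1 passed through a continuous range. Cells just inside it, with 3 UMIs, numbered 142 in LI and 139 in SI with a median of 509 and 524 Grem1 CPM. Those just outside, with 2 UMIs, numbered 211 and 186 at 355 and 387 CPM.

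The genes of the rule are given as a description, since these values picked the cells. Grem1 stood at 1655 CPM (1628 to 1683) in LI and 1494 CPM (1469 to 1519) in SI, pooled over all selected cells, against 263 and 559 CPM in other Dcn+ cells. Single cells held a median of 8 Grem1 UMIs in LI and 9 in SI, and at most 96 and 71. Cd81 was at 617 and 673 CPM and Dcn at 15643 and 16958 CPM. Thinned to 2000 UMIs per cell, 13.6% of LI and 12.2% of SI cells with pericyte markers still had a Grem1 UMI, a background share that is not a measure of free RNA alone, since single cells of this kind held up to 112 and 107 Grem1 UMIs. Before thinning these cells, all outside the selection, had medians of 5102 and 4985 UMIs. The corresponding thinned shares were 18.6% and 35.6% in other Dcn+ cells, so the comparator held more such cells in SI than in LI, and 87.01% and 89.5% in the selected cells.

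Pan-fibroblast markers outside the rule were present in both libraries. The 7 markers summed to 29812 CPM in LI and 40638 in SI, against 24746 and 29294 in other Dcn+ cells. Col1a1, a chain of type I collagen, was at 6435 and 9156 CPM. Pdgfra, the receptor that is highest in the FB next to the epithelium, was instead somewhat lower than in the comparator, at 131 against 179 CPM in LI and 214 against 264 CPM in SI. Endothelial, epithelial, kidney tubule and immune markers were low and summed to less than in other Dcn+ cells. Endothelial markers summed to 9.66 and 11.5 CPM, epithelial to 7.18 and 13.5, kidney tubule to 1.88 and 3.24, and immune to 50.5 and 48.00, with Cd3e at 0 in both (3 UMIs would give 0.353 and 0.314 CPM). The share of cells with 2 or more immune markers was 4.10% against 3.78% in LI and 4.75% against 4.22% in SI, higher among the selected cells in both. Pericyte markers summed to 435 against 530.5 CPM in LI and 771 against 1319 in SI. The share of cells with 2 or more of them was instead higher among the selected cells, at 32.2% against 19.8% in LI and 34.3% against 31.6% in SI. The part of depth in this share was not tested. The 5 markers of interstitial cells of Cajal (ICC) summed to more than in the comparator, at 323 against 222 CPM in LI and 152 against 115 in SI. In each library 2 of 5 were higher, among them Thbs4, described below. Cells with 2 or more ICC markers made up 10.2% against 7.30% in LI and 5.50% against 5.70% in SI. Kit was at 9.66 and 2.93 CPM and Ano1 at 7.65 and 5.44. Smooth muscle markers were higher in SI for 9 of 9 genes and in LI for 5 of 9, and summed to 2413 CPM against 2782 in LI and 6345 against 4090.4 in SI. Only 5 of these genes, Myh11, Actg2, Des, Cnn1 and Synpo2, were counted per cell. The share of cells with a UMI for 2 or more of the 5 was lower among the selected cells, at 14.3% against 15.8% in LI and 17.7% against 27.7% in SI. Thinned to 2000 UMIs, 10.8% of the selected and 13.5% of other Dcn+ cells of SI had an Actg2 UMI, and 11.9% and 19.6% a Des UMI.

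Part of the selection went against the FB label. Cells with a UMI for all 5 of Myh11, Actg2, Des, Cnn1 and Synpo2, genes of the contractile apparatus and its attachments, numbered 28 in LI (2.61%) and 64 in SI (5.33%). In these cells Actg2, the enteric smooth muscle actin, stood at 6017 and 12048 CPM, Pdgfra at 4.66 and 49.4, and Dcn at only 2705 and 2135 CPM. Their Grem1, at 1847 and 1294 CPM, was close to that of the 640 LI and 655 SI cells with none of the 5, at 1726 and 1619.8 CPM. The rule thus took in a small set of cells with a smooth muscle profile, and Actg2, Acta2 and Tagln were the 3 genes that varied most between the selected cells. At 2000 UMIs per cell, the variance over the mean was 31.6 in LI and 40.7 in SI for Actg2, against 1.13 and 1.11 for the median gene and 3.66 and 2.41 for Grem1. The interferon-induced chemokines Cxcl9 (16.1 and 17.00) and Cxcl10 (12.1 and 15.1) also ranked among the 10 most uneven genes.

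The selected cells came from embryos of both sexes, and these were not evenly represented. Cells with a Y-linked UMI (Ddx3y, Eif2s3y, Kdm5d or Uty) and none of Xist are called male, and the reverse female. In LI, 268 Grem1hi CD81 FB were male (24.95%, 22.4 to 27.7) but only 6.83% of other Dcn+ cells. Put the other way, 32.4% (29.2 to 35.7) of 828 male and 8.04% (7.43 to 8.68) of 7514 female Dcn+ cells of LI met the rule. In SI the shares were close, at 18.7% of 1659 male and 17.3% of 3980 female cells. Male Dcn+ cells were also deeper than female ones, with medians of 8618 against 5194 UMIs in LI and 7847 against 5436 in SI. Sex, embryo and graft cannot be told apart here, and the part of depth in these shares was not tested. Because pooled LI values mix embryos in different proportions in the 2 sets of cells, values within female and within male cells are given beside the results they bear on.

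**Figure D1:**
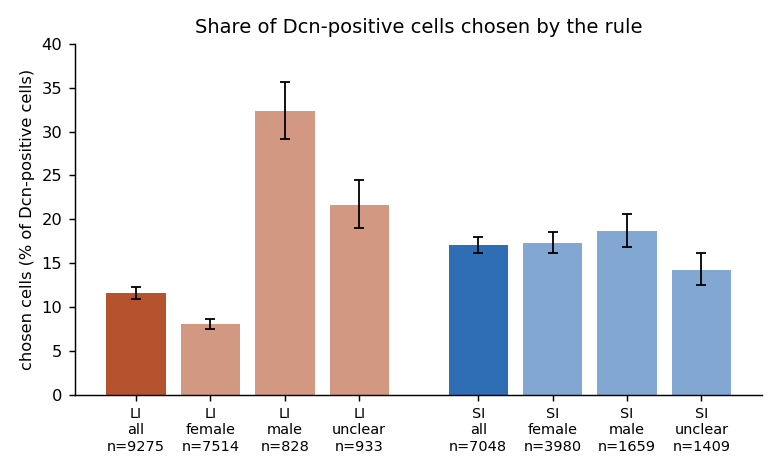
Share of Dcn+ cells that met the rule (percent, y axis) in the LI and SI graft libraries, for all, female, male and unclear cells (n Dcn+ cells under each bar), with exact 95% binomial intervals that cover counting error only. LI male cells stood at 32.4% against 8.04% of LI female cells, while the 2 sexes of SI lay at 18.7% and 17.3%.

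Within each library, levels in Grem1hi CD81 FB were set against other Dcn+ cells as log2 ratios of pooled CPM with 1 CPM added to both, and a gene was called where it differed at least 2-fold and reached 50 CPM in either set. In LI, 22 of 3178 genes (0.692%) were called higher and 36 of 3178 genes (1.13%) lower. In SI, 17 of 3195 genes (0.532%) were called higher and 58 of 3195 genes (1.82%) lower. Both libraries shared the call for 2 of 2971 genes (0.0673%) higher, Dlk1 and Thbs4, and for 15 of 2971 genes (0.505%) lower. The median gene was at a log2 ratio of 0.00031 in LI and -0.067 in SI. Of the 22 genes called higher in LI, 14 kept that direction within both female and male cells and 8 turned in at least 1 of them, and 2 were past 2-fold in both. Of the 36 called lower in LI, 33 kept their direction in both sexes. In SI this was so for 17 of 17 higher and 57 of 58 lower genes. Across the 4 sets of female and male cells of both libraries, 0 of 2599 genes (0%) were at least 2-fold higher in every one, and 3 of 2599 genes (0.115%), Wnt4, Col15a1 and Gja1, at least 2-fold lower.

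**Figure D2:**
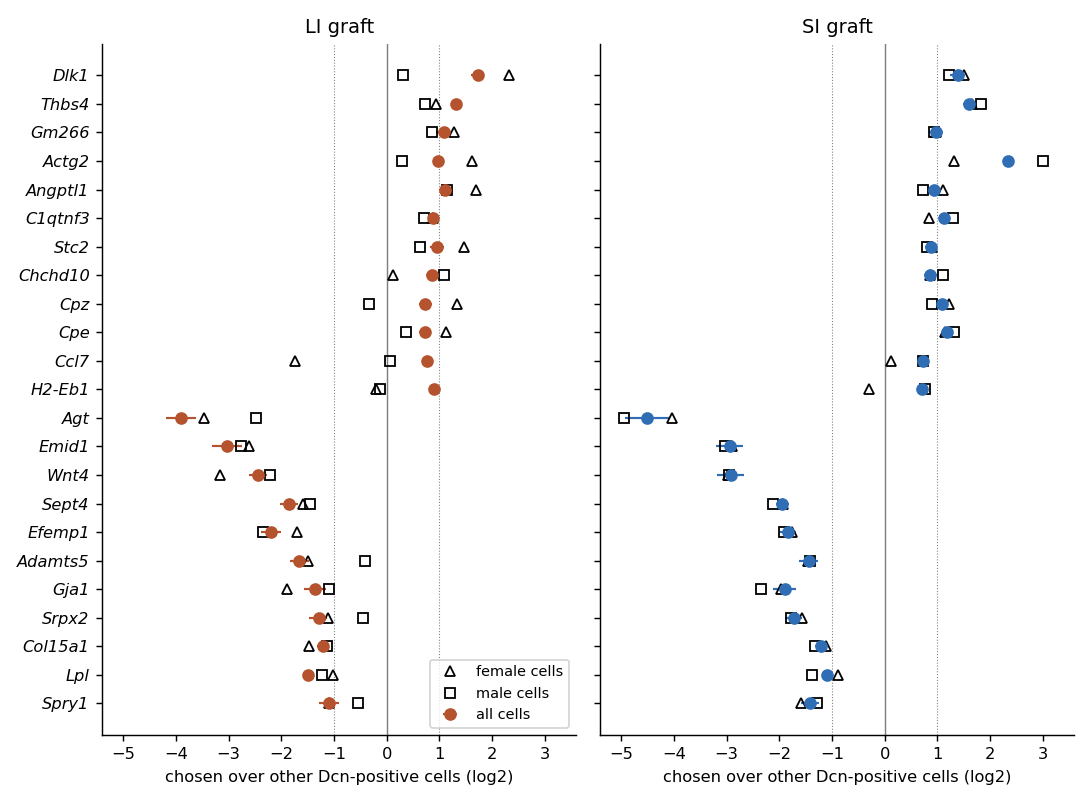
Log2 ratio of pooled CPM in Grem1hi CD81 FB over other Dcn+ cells (x axis) for the leading genes (y axis), LI left and SI right, with filled dots for all cells (bars, 95% intervals for counting error), triangles for female and squares for male cells, "chosen" for Grem1hi CD81 FB and dotted lines at 2-fold. Agt lay furthest to the left, at -3.90 in LI and -4.51 in SI, and Dlk1 and Thbs4 lay past 1 in both libraries.

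Dlk1, a membrane-bound relative of Notch ligands that restrains adipocyte differentiation, led the genes higher in both libraries. It stood at 105 CPM (98.5 to 112) against 31.1 CPM in LI, a log2 ratio of 1.73 (1.61 to 1.84), and at 69.3 CPM (64.2 to 74.8) against 25.98 CPM in SI, 1.38 (1.24 to 1.52). The difference was large in LI female cells (2.31) and small in LI male cells (0.31). Thbs4, a matricellular thrombospondin, was at 251 against 100.5 CPM in LI (1.31, interval 1.24 to 1.38) and 105 against 33.8 CPM in SI (1.61, interval 1.49 to 1.73). In LI it stayed higher in both sexes but under 2-fold (0.92 in female and 0.72 in male cells). In SI it passed 2-fold in both (1.66 and 1.83).

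Further genes ranked among the highest in both libraries. Angptl1, an angiopoietin-like protein, was at 134 against 62.1 CPM in LI (1.10, interval 0.999 to 1.19) and at 665 against 349.5 CPM in SI (0.92, interval 0.88 to 0.97). C1qtnf3, a C1q-like adipokine, had ratios of 0.88 (0.83 to 0.94) and 1.12 (1.05 to 1.19), and Stc2, a secreted stanniocalcin, of 0.95 (0.81 to 1.08) and 0.87 (0.77 to 0.96). These 3 genes were past 2-fold in no more than 1 of the 2 libraries. Cpz, a carboxypeptidase that binds Wnt proteins, was called in SI only (1.08), and in LI its ratio of 0.73 was 1.34 in female and -0.33 in male cells. Cpe, the carboxypeptidase that processes prohormones, was at 0.73 and 1.18. Gm266, a predicted gene, had ratios of 1.08 and 0.98, and Chchd10, of the mitochondrial intermembrane space, of 0.86 and 0.86. Against Cd81+ cells outside the 3 marker groups of the rule and without a Grem1 UMI, Chchd10 (-0.0055 and -0.48) and Cpe (-0.10 and -0.063) turned below 0 in LI and SI. Thbs4 (0.53 and 0.51) was then under 2-fold in both libraries, Angptl1 (0.72) and Gm266 (0.88) in LI, and Dlk1 (0.13) and C1qtnf3 (0.62) in SI.

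For the remaining leading genes, pooled LI ratios did not hold within a sex or rested on few cells. Actg2 had ratios of 0.97 in LI and 2.35 in SI, with 34.9% of the selected cells' Actg2 UMIs of LI in 1 barcode. In SI it passed 2-fold in female (1.31) and male cells (3.01). Ccl7, a monocyte-attracting chemokine, was at 621 against 367 CPM in LI (0.76) but at -1.74 within female and 0.063 within male cells. In SI it was at 58.2 against 53.5 CPM in female and 170 against 102 CPM in male cells. H2-Eb1, a chain of major histocompatibility complex (MHC) class II, was at -0.30 in SI female cells but at 313 against 185 CPM in SI male cells. In LI it had a pooled ratio of 0.90, and -0.21 and -0.13 within the sexes. The LI calls of Cd74, H2-Q6 and H2-Q7, all of antigen presentation, likewise turned below 0 in both sexes. For these genes the larger part of male cells among the LI Grem1hi CD81 FB went with the pooled difference.

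Genes lower in Grem1hi CD81 FB are given next. Agt, the precursor of angiotensin, stood at 9.77 CPM (7.78 to 12.1) against 159.8 CPM in LI (-3.90, interval -4.20 to -3.61) and at 3.03 CPM (2.03 to 4.36) against 90.8 CPM in SI (-4.51, interval -4.92 to -4.10). Wnt4, a Wnt ligand, was at 29.7 against 166 CPM in LI (-2.44, interval -2.62 to -2.27) and 11.1 against 90.7 CPM in SI (-2.92, interval -3.19 to -2.67). Its ratio lay between -3.17 and -2.22 over the 4 sets of female and male cells. Emid1, an extracellular EMI-domain protein, had ratios of -3.04 and -2.94, and Sept4, a septin, of -1.85 and -1.94. Efemp1, a fibulin of elastic matrix, was at 26.02 against 123 CPM in LI (-2.19) and 39.7 against 144 CPM in SI (-1.84). Agt, Emid1, Sept4 and Efemp1 were each more than 2-fold lower within female and within male cells of either library, but did not reach 50 CPM in LI male cells, at 17.9, 30.3, 47.3 and 42.6 CPM in the male comparator.

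Basement membrane, adhesion and signalling genes completed this group. Col15a1, a collagen of basement membrane zones, was at 83.6 against 196 CPM in LI (-1.22, interval -1.33 to -1.11) and 76.3 against 178 CPM in SI (-1.21, interval -1.33 to -1.11). Gja1, a connexin of gap junctions, was at -1.37 and -1.90, and the aggrecanase Adamts5 at -1.66 and -1.45. Lpl, lipoprotein lipase, was at 137 against 387 CPM in LI (-1.49) and 108 against 233 CPM in SI (-1.11). Spry1, a feedback inhibitor of receptor tyrosine kinase signalling, was at -1.10 and -1.42. Srpx2, a secreted sushi-repeat protein, was at -1.30 and -1.73. In LI male cells the differences of Adamts5 (-0.41), Srpx2 (-0.45) and Spry1 (-0.54) were under 2-fold. With the comparator limited to Cd81+ cells outside the 3 marker groups of the rule and without a Grem1 UMI, several of the calls ended. Agt was then at -0.61 in LI and -1.37 in SI, and Wnt4 at -0.81 and -2.99. Sept4 (-0.97 and -0.97) and Srpx2 (-0.68 and -0.67) were under 2-fold in both libraries, and Efemp1 (-0.44), Adamts5 (-0.58), Gja1 (-0.85) and Col15a1 (-0.92) in SI.

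Of 11 genes known from adult trophocytes, 6 reached 50 CPM in both libraries, and their median log2 ratio was 0.26 in LI and 0.062 in SI. Rspo3, the R-spondin that amplifies Wnt signals at the crypt base, was at 220.1 CPM (210.2 to 230.3) against 84.6 CPM in LI (1.37, interval 1.29 to 1.45) and at 182 CPM (173 to 191) against 113 CPM in SI (0.68, interval 0.60 to 0.76). It was the 1 gene of the list called in LI, where 0.692% of all genes were called higher, and its ratio was above 0 in female (1.14 and 0.61) and male cells (1.22 and 0.83) of LI and SI. Ackr4, a scavenger receptor of homeostatic chemokines on trophocytes, was called in SI, at 144 against 49.6 CPM (1.52, interval 1.42 to 1.62), and was at 0.80 against Cd81+ cells without Grem1. In LI it was low in both sets, at 24.1 against 14.8 CPM (0.67). Cd34, which marks PDGFRAlo FB, did not set the cells apart, at 237 against 217 CPM in LI and 347 against 341 CPM in SI. Il33 (-0.085 and -0.11), the complement component C3 (0.15 and 0.59) and Ly6a (0.37 and 0.061) stayed under 2-fold. Rspo2, at 6.36 and 34.1 CPM in LI and SI, was under the minimum in both.

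Of 12 other BMP antagonists, 3 were measured in both libraries, and each had a negative ratio, Nbl1 of -0.61 and -1.20, Twsg1 of -0.52 and -0.46, and Fstl1 of -0.094 and -0.24. The Nbl1 difference in SI was the 1 call, where 1.82% of all genes were called lower. Chrdl2, a chordin-like antagonist, was called higher in LI, at 159 against 43.5 CPM (1.84, interval 1.74 to 1.94), with 0.82 in female and 0.65 in male cells, and it was under the minimum in SI, at 7.63 CPM. Among ligands outside the rule, Bmp4 had ratios of -0.43 and -0.91 and Bmp2 of -0.66 and -0.22. The BMP target genes Id1 (-0.63 and -0.79) and Id4 (-0.53 and -1.11), inhibitors of basic helix-loop-helix factors, were also on the lower side, and Id4 was called in SI. Over the 10 receptors and targets measured in both, the median was -0.14 in LI and -0.040 in SI.

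Of the Wnt ligands, Wnt5a, which acts largely without beta-catenin, had ratios of -0.94 and -0.74 beside the lower Wnt4. Ptch1, the hedgehog receptor and itself a target of the pathway, was at 58.6 against 135 CPM in LI (-1.18, interval -1.32 to -1.06), a call, and 59.3 against 115 CPM in SI (-0.94, interval -1.07 to -0.82). Within LI its ratio was -0.86 in female and -0.65 in male cells, under 2-fold in both. The hedgehog list as a whole, 4 genes measured in both, had medians of -0.36 and -0.23. Of 21 chemokines and cytokines, 12 were measured in both libraries, with medians of 0.17 and -0.11. Cxcl14 was called lower in SI (-3.22) and had a ratio of -0.40 in LI, and the eosinophil attractant Ccl11 was at -2.02 in SI and 0.12 in LI. Il11, a cytokine of the interleukin 6 family, was called higher in LI (1.90) but was under 2-fold within female (0.75) and male cells (0.98), and reached only 3.66 CPM in SI.

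Matrix and transcription factor genes showed mostly small ratios. Col1a1 was at 0.36 in LI and 0.54 in SI, whereas Col18a1, a basement membrane collagen, was at -0.94 and -2.18, the latter a call. Over the 17 collagens measured in both, the medians were -0.039 and 0.036. The homeobox factor Meis2 had ratios of 0.63 and 0.63 and Tcf4 of -1.03 and -1.004. Within LI Tcf4 was at -0.98 in female and -0.31 in male cells, under 2-fold in both, and within SI at -0.97 and -1.01. Ebf1, a factor of mesenchymal progenitors and adipocytes, was called lower in SI (-1.78) and was at -0.60 in LI, and Nkx2-3, the homeobox factor of gut mesoderm, was at -0.51 and -0.89. Other tetraspanins had a median over 7 genes of 0.044 and 0.057 and Cd9 at 0.55 and 0.10.

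The comparator was a mixture. Cells without a Grem1 UMI and outside the 3 marker groups of the rule made up 38.8% of it in LI and 26.6% in SI, and against them Agt had log2 ratios of -3.10 and -4.12, Emid1 of -2.81 and -3.28, and Wnt4 of -1.74 and -2.78. The Cd81+ cells among them held 15.4 and 9.43 CPM of Agt and 52.7 and 95.1 CPM of Wnt4. Against the 2350 LI and 1922 SI cells with 2 or more of the Fgfr2 group, Agt had log2 ratios of -5.07 and -5.50, Wnt4 of -3.22 and -3.27, and Dlk1 of 3.38 and 4.95. Against cells with 2 or more of Bmp3, Bmp5 and Bmp7, Pdgfra was at -1.82 and -2.20 and Emid1 at -5.63 and -5.22. Agt was also far below these cells (-4.88 and -4.51) and Dlk1 far above (3.86 and 3.65). Against cells of the Pi16 group, which marks adventitial FB, Cd34 was lower, at -0.73 and -1.33, as were C3 (-1.22 and -0.56) and Rspo1 (-1.18 and -2.06). The gap to these cells was narrower than to the others for Agt (-1.09 and -1.13) and absent for Emid1 (0.090 and 0.84). Rspo3 was higher than in cells of the Pi16 group (1.55 and 0.76), but in SI it was only 0.21 against cells of the Fgfr2 group. Against cells outside the 3 groups that had a Grem1 but no Cd81 UMI, of which 52.8% in LI and 71.7% in SI had 3 or more Grem1 UMIs, Rspo3 was at 0.11 in LI and -0.26 in SI, the latter with 218 CPM in those cells.

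Cells that met the rest of the rule but had only 1 to 2 Grem1 UMIs were compared next. There were 662 of them in LI and 461 in SI. Their medians were 5728 and 5090 UMIs, against 7268 and 7032 in Grem1hi CD81 FB, and 11.6% and 16.5% of them were male, against 24.95% and 25.8%. The part of depth and sex in the differences was not tested. Against them, 19 of 3138 genes (0.605%) were called higher and 9 of 3138 genes (0.287%) lower in LI, and 17 of 3149 genes (0.54%) higher and 16 of 3149 genes (0.508%) lower in SI, so few genes outside the rule separated both sets. Agt (0.010 and -0.66), Dlk1 (0.28 and -0.57), Ackr4 (-0.28 and -0.092), Cd34 (-0.016 and 0.023) and Thbs4 (0.31 and 0.016) were under 2-fold in this comparison. Rspo3 (1.04 and 1.18), Lpl (-1.70 and -1.32) and Wnt4 (-1.22 and -1.07) were past it in both libraries.

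Levels were then read over 5 bins of Grem1 UMIs (0, 1 to 2, 3 to 5, 6 to 10 and over 10) in Dcn+ Cd81+ cells that carried fewer than 2 genes of each excluded group. Rspo3 increased over the bins, with 73.9, 106, 123, 172 and 317 CPM in LI and 43.9, 79.8, 112, 162 and 231 CPM in SI. From the lowest to the highest bin this was a log2 difference of 2.09 and 2.37, and it was of similar size in female (1.71 and 2.58) and male cells (1.97 and 2.14). Stc2 stood at 20.1 CPM in the lowest and 68.3 CPM in the highest LI bin, and at 22.7 and 158 CPM in SI. Mgll, which breaks down monoacylglycerols, differed by 1.45 and 2.18. In the other direction, Lpl went from 362 to 65.3 CPM in LI and from 325 to 53.4 CPM in SI, although in LI it first stood higher, at 448 CPM with 1 to 2 Grem1 UMIs. Igfbp6 went from 725 to 180.3 and from 737 to 133 CPM, and Ebf1 from 301 to 95.03 and from 217 to 27.6 CPM. Deep cells fill the high bins, whose median was 7937 UMIs in LI against 5296 in the lowest, and in LI the male share went from 7.50% to 37.8%. The rises of H2-Q6 (1.89) and AW112010 (1.63) in LI were absent from female cells (-0.25 and -0.24).

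**Figure D3:**
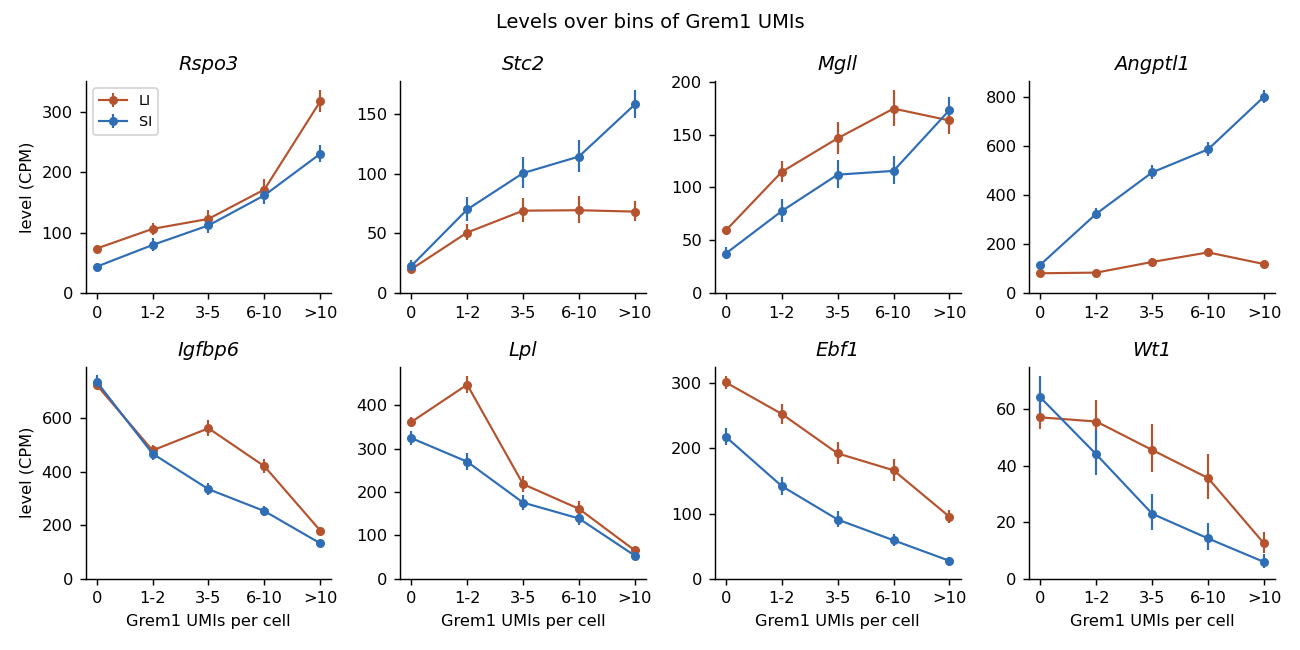
Pooled CPM (y axis, linear from 0) of 8 genes, 1 per panel, over 5 bins of Grem1 UMIs per cell (x axis) in Dcn+ Cd81+ cells of the LI and SI libraries, with exact Poisson 95% intervals. Rspo3 went from 43.9 to 231 CPM in SI and Lpl from 325 to 53.4 CPM.

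Grem1hi CD81 FB of the LI and SI libraries were compared with each other to see how far these cells kept the character of the gut segment from which the graft was taken. LI was at least 2-fold higher for 95 of 3168 genes (3%) and lower for 73 of 3168 genes (2.3%), around a median of 0.052 for all genes. Of the 95 higher genes, 83 had that direction in both female and male cells and 26 passed 2-fold in both. Of the 73 lower genes these counts were 72 and 21. The remaining genes were under 2-fold or turned in at least 1 sex, and kit chemistry cannot be told apart from the segment.

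Positional genes also differed between the libraries. Hoxa10, of the posterior Hox groups, was at 56.1 CPM in LI and 1 UMI in SI, with ratios of 5.95 in female and 5.65 in male cells. Pitx1, a factor of posterior mesoderm, was higher in LI by 4.15 (3.80 to 4.51) with 4.54 in female and 3.37 in male cells. Hoxd9, Hoxd10 and Hoxd11 stood at 40.04, 24.02 and 41.7 CPM in LI and at 0 UMIs in SI, where 3 UMIs would give 0.314 CPM, and Hoxa9 at 32.1 and 0.209 CPM. Of the 23 genes of Hox groups 1 to 8, 3 were measured and 1, Hoxc8, was called lower in LI, where 2.3% of all genes were, at -1.89 with -0.55 in female and -3.01 in male cells. The posterior Hox list of 16 genes summed to 260.5 CPM in LI and 6.06 in SI, with 318 and 8.42 CPM in other Dcn+ cells, so other Dcn+ cells differed between the libraries too.

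Ren1, the protease that releases angiotensin I, was at 96.2 CPM (89.7 to 103) in LI and 0.837 CPM (0.361 to 1.65) in SI, and its ratio of 5.73 was large in female (5.56) and male cells (6.53). Other Dcn+ cells of LI held 77.2 CPM of Ren1. The kidney markers, as low as given above, cover the tubule only, and the source of Ren1 was not tested. Sfrp2, a secreted Wnt antagonist, was at 76.2 and 0.941 CPM (6.11 and 2.75), and Fgf10, a mesenchymal growth factor for epithelium, at 56.2 and 1.05 CPM (3.75 and 5.54). The epidermal growth factor receptor ligand Areg was at 102 and 1.78 CPM and Il11 at 171 and 3.66 CPM. Both were higher in LI in female (3.13 and 3.20) and male cells (5.87 and 5.85). For Cxcl14, Chrdl2, Ttyh1 and Ramp3 the male difference, 5.36, 4.87, 5.78 and 5.98, was far above the female one of 1.95, 1.30, 2.08 and 0.62.

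On the SI side Ackr4 led, at 24.1 CPM (20.9 to 27.7) in LI and 144 CPM (137 to 152) in SI, a log2 ratio of -2.53 (-2.74 to -2.32) with -2.43 in female and -2.70 in male cells. Angptl1 was at 134 and 665 CPM (-1.37 and -5.23), the axon guidance ligand Slit2 had a ratio of -2.10 (-1.96 and -2.22), and Smoc2, a matricellular calcium-binding protein, of -2.10 (-2.67 and -1.22). Muscle genes were also lower in LI, with Des at 117 and 632 CPM and Actg2 at 238 and 1107 CPM, and 7 of 8 measured smooth muscle markers were called, against 2.3% of all genes. In female cells Actg2 (-0.72), Cnn1 (-0.78), Myh11 (-0.79), Acta2 (-0.77) and Lmod1 (0.043) were under 2-fold, whereas in male cells they lay between -3.04 and -3.83. Without cells that carried markers of other cell types, the Actg2 ratio turned from -2.21 to 0.90, and those of Des and Cnn1 from -2.43 and -2.29 to -0.23 and -0.35. Rgs5, which pericytes express, had a ratio of -2.48, while Sh3bgr, of muscle, was at -1.93. Interferon and antigen presentation genes leaned to SI, with 9 of 22 called lower in LI, against 2.3% of all genes, 0 higher and a median of -0.64. The list also summed to less in other Dcn+ cells of LI, at 5088 against 10149 CPM in SI, beside 7385 and 11026 CPM in Grem1hi CD81 FB. Cxcl10 was at 560.0 CPM in LI and 2172 in SI, and lower in LI in female (-2.64) and male cells (-1.71).

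**Figure D4:**
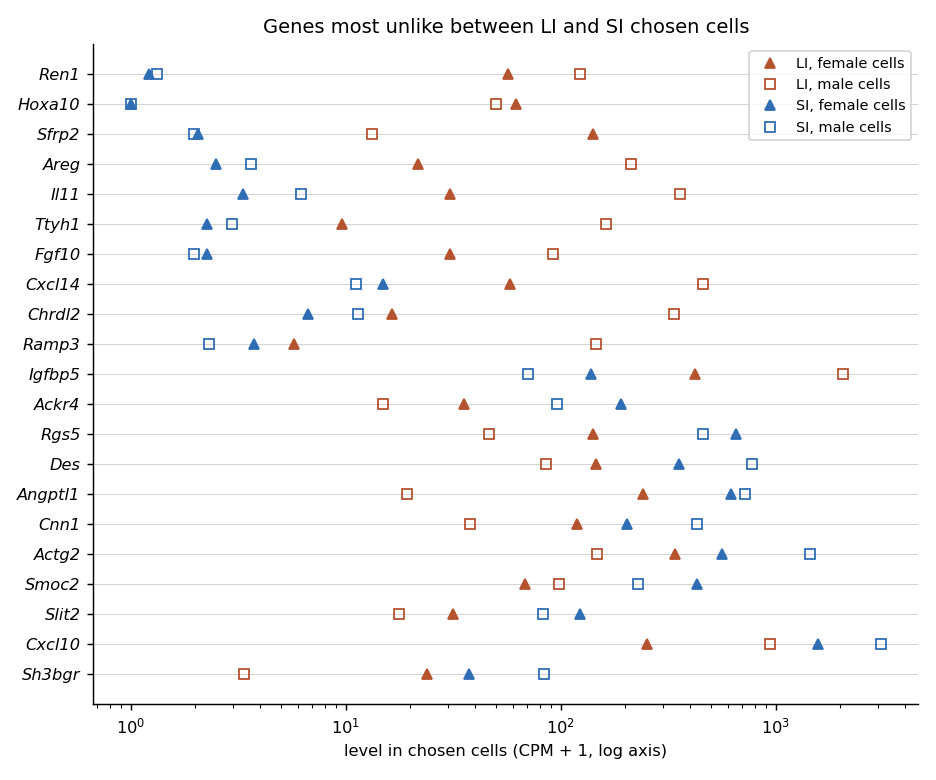
Pooled level (x axis, CPM plus 1, log scale) of the genes that led the comparison of LI with SI, and of Igfbp5 (y axis), in the chosen cells (Grem1hi CD81 FB), with triangles for female and squares for male cells of LI (orange) and SI (blue) and no error shown. Both LI symbols lay above both SI symbols for Ren1 and below them for Ackr4, while the LI female level of Ramp3, at 4.76 CPM, lay near the 2.75 CPM of SI female cells and far below the 145 CPM of LI male cells.

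Male and female Grem1hi CD81 FB of LI differed in many genes, and those of SI in fewer. In LI, with 268 male and 604 female cells, 316 of 3388 genes (9.33%) were at least 2-fold higher in male cells and 281 of 3388 genes (8.29%) lower, and in SI, with 310 and 690 cells, 75 of 3092 genes (2.43%) higher and 10 of 3092 genes (0.323%) lower. These sets stand for different embryos and grafts, and the genes named next were chosen after their values were seen. In LI male cells the growth factor Ereg was at 365 CPM against 10.5 in female cells, Ccl2 at 1371 against 79.01, and Cxcl9 at 1019 against 67.6 CPM. Female cells held more Fmo2, a monooxygenase (7.93 CPM in male and 465 in female), Hpgd, which inactivates prostaglandins (3.57 and 197), and Cxcl12 (81.7 and 678). In SI, the acute phase gene Saa3 (136 and 4.86 CPM) and Cxcl9 (1632 and 159) were higher in male cells. In other Dcn+ cells Cxcl9 also differed between the sexes, at 1090.3 against 104 CPM in LI and 1593 against 188 in SI, whereas Saa3 was at 97.2 against 78.8 CPM in SI.

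The MHC class II genes of the 2 sexes are given next. The wider list of interferon and antigen presentation genes, 19 of 23 measured in both libraries, had median ratios over other Dcn+ cells of 0.34 in LI and 0.079 in SI. At 2000 UMIs per cell, a UMI for 2 or more of 4 class II genes was found in 37.5% (31.6 to 43.6) of 267 male and 4.33% (2.85 to 6.27) of 601 female Grem1hi CD81 FB of LI. Other Dcn+ cells of LI lay at 39.8% and 3.01%, so within a sex the intervals overlapped, although the pooled shares were 17.4% and 7.22%. In SI, the female shares lay close together, at 5.24% and 4.39%, and male Grem1hi CD81 FB were above other male Dcn+ cells, at 33.01% (27.8 to 38.6) against 19.1% (16.99 to 21.3). Immune markers summed to no more than 50.5 CPM in the selected cells of either library.

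**Figure D5:**
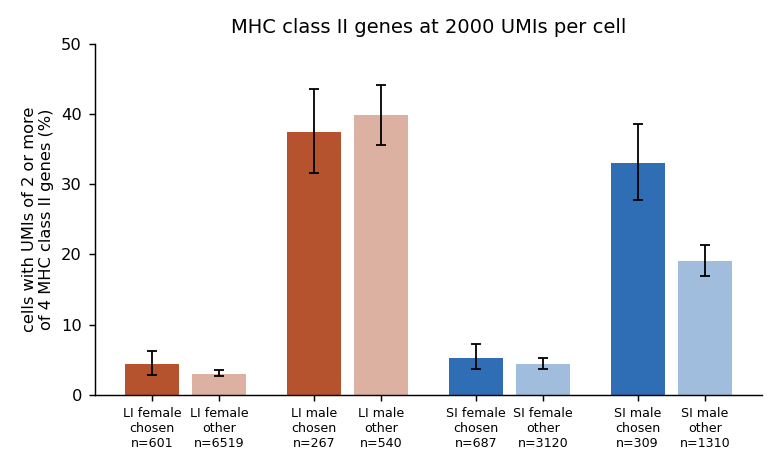
Share of cells (percent, y axis) with a UMI for 2 or more of 4 MHC class II genes after thinning to 2000 UMIs, for Grem1hi CD81 FB (chosen, dark bars) and other Dcn+ cells (light bars) by library and sex, with n cells under each bar and exact 95% binomial intervals. LI male cells of both kinds stood at 37.5% and 39.8% and LI female cells at 4.33% and 3.01%.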

How the data were processed

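The authors deposited raw UMI counts per gene and cell barcode for 1 LI and 1 SI graft library, whole numbers with no normalization, over 28692 features. The submitters' processing notes name Cell Ranger 3.1.0, Seurat 3 and mm10. The annotation release is not given in the sources used here. Seurat output was not used here. Barcodes were kept from 500 detected genes upwards and up to 10% mitochondrial UMIs, and the UMI rule was applied to raw counts without clustering. Scrublet's own threshold called 0 doublets, so it did not work here and doublets were not removed, except in an alternative that took out the highest scores at 0.8% per 1000 barcodes. That took 12.9% of the selected cells of LI and 10.2% of SI.

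UMIs were summed per library and set of cells and divided by their total (CPM). Log2 ratios had a pseudocount of 1 CPM and are called from 2-fold at 50 CPM or more in either set. Intervals are exact Poisson for CPM, exact Clopper-Pearson for shares and from an exact binomial split for ratios. Sets were also compared after thinning each cell to 2000 UMIs (leaving out 12 selected and 616 other shallower cells in LI, and 16 and 403 in SI). With simulated Poisson counts on pooled totals, the log2 ratio had the right sign for 200 of 200 changed genes in each of the 3 comparisons. These counts held no variation between cells, embryos or libraries, so this checks the computation only. Named are the rule genes, the genes of 36 lists, in each direction the 12 genes whose smaller ratio of the 2 libraries was largest, the 10 of LI over SI in each direction, and those changing most over the Grem1 bins, and 1 gene that this rule names is not reported here. The members and lists were chosen with earlier results of these data known. Coordinates are from GENCODE vM21 on GRCm38. Python 3.11.15, numpy 2.4.6, scipy 1.17.1, scanpy 1.11.5 and edgeR 4.0.16 (TMM scaling only) were used.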

Additional observations from a re-analysis of the deposited data

Results flagged for a closer look

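Igfbp5, an insulin-like growth factor binding protein, went in opposite directions in the 2 libraries. Its log2 ratio in Grem1hi CD81 FB over other Dcn+ cells was 0.99 in LI, at 1184 against 596 CPM, and -1.81 in SI, at 112 against 397 CPM. The difference was not tested, since each side is 1 library. It was the 1 gene of 2970 that differed at least 1.5-fold in opposite directions. Within LI the ratio was -0.072 in female and 0.69 in male cells, and within SI -1.62 and -2.35, so the higher LI level was absent from female cells.

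Among barcodes outside the limits on genes and mitochondrial UMIs, which no comparison used, 6 in LI and 17 in SI also met the UMI rule.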

How the results depend on the processing

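Of 18 alternatives, 16 were planned and 2, male cells only and leaving out the barcode with the most UMIs of each gene, were chosen after seeing the data. The share of Dcn+ cells meeting the rule (LI 11.6%, SI 17.04%) was 10.6% and 16.1% under looser limits on barcodes, 13.9% and 19.7% from 2 Grem1 UMIs, 8.65% and 13.4% from 5, 5.35% and 8.01% with the rule applied to thinned counts, 10.1% and 18.1% without cells carrying other markers, 32.4% and 18.7% in male cells, and, in LI, 12.7% under stricter limits and 8.04% in female cells. SI was above LI in each of these except among male cells. The count of genes higher in both libraries, 2 in the main setting, became 4 with doublets removed, 4 from 5 Grem1 UMIs and 1 with thinned counts. It was 5 with the mean of per-cell CPM, 5 with TMM scaling and 6 against Cd81+ cells without Grem1. Those 6 did not include Dlk1 or Thbs4, each then under 2-fold in at least 1 library. Against the same cells, Agt and Wnt4 in LI and Efemp1, Adamts5, Gja1 and Col15a1 in SI were no longer 2-fold lower. Nor were Sept4 and Srpx2 in either library. In female cells, the counts higher and lower in both libraries were 8 and 25, with 40 genes higher in LI than SI. In male cells they were 0 and 6, with 249 higher and 234 lower in LI than SI. A minimum of 10 CPM gave 7, 81, 229 and 202 for these 4 counts and no minimum 13, 204, 401 and 394, since more genes were then counted. Of 111 log2 ratios of named genes, 25 changed sign under at least 1 alternative. Those past 2-fold that did were H2-Q6 in LI (-0.093 in female and -0.075 in male cells), Cd74 in LI (-0.39 and -0.11), LI over SI of Actg2 (0.90) and Sh3bgr (0.26) without cells carrying other markers, and Cpe in SI against Cd81+ cells without Grem1 (-0.063). Except where the construction shows it, the cause was not tested. No paired analysis was possible because there was 1 library per group and the labels carry no replicate numbers, and leaving out a replicate was not run for the same reason. Depth limits the precision of genes near 50 CPM.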

Other observations

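Slc16a3, Slc2a1, Eno1, Ldha and Vegfa were among the genes higher in LI than in SI Grem1hi CD81 FB, and they were named after their values were seen. The log2 ratio was 3.75 for the lactate carrier Slc16a3, 2.14 for the glucose carrier Slc2a1, 1.58 for enolase Eno1 and 1.41 for lactate dehydrogenase Ldha, with 1.33 for the angiogenic factor Vegfa. In female cells these were 1.45, 0.55, 0.22, 0.37 and 0.045, and in male cells 4.54, 3.02, 2.28, 2.08 and 1.82. Apart from Slc16a3, the genes of this group were thus under 2-fold in female cells, and the male values were the larger ones for all 5.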
